A study of Mus musculus with 6 samples.

Results

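The genes of the DNA replication origin and fork machinery were compared between early-labelled and late-labelled cells of the Atoh1 lineage at one common age. They were taken from a list of 51 genes, and every probe set whose platform annotation named 1 of these symbols alone was used. This gave 104 of the 45101 probe sets on the array, for 50 of the 51 genes; Chaf1a, a chromatin assembly subunit, was not analysed here. In this report a gene is represented by its brightest probe set (on the mean of log2 signals), and a signal is a linear array intensity in arbitrary units, so values are compared between samples and not between genes.

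The samples were 6 Affymetrix 430 2.0 arrays of total RNA from EGFP-positive cells of the rhombomere 1 and isthmus region of Swiss Webster mouse embryos, sorted at E14.5. All embryos carried the transgene Atoh1-CreER, a tamoxifen-activated recombinase under Atoh1 control, and the EGFP reporter RCE, and all dams received 4 mg tamoxifen per 35 g. The early group (3 arrays) was dosed at E10.5 and the late group (3 arrays) at E13.5, so 4 days passed between dosing and collection in the early group and 1 day in the late group. Only cells that expressed Atoh1 around dosing, and their progeny, could be labelled, and the day of labelling and the time since labelling differ together. Separate litters are not stated for the 3 samples of a group, and the p-values therefore cover the scatter among these arrays alone, which can be partly technical in origin. Early replicate 3 and late replicate 3 stood apart from the rest in single genes. Early replicate 3 had a low signal of Xist (166, against 8141 to 19800 elsewhere), and late replicate 3 had low signals of the Y-linked genes Eif2s3y and Kdm5d (14.1 and 12.1). In the other arrays Eif2s3y stood at 826 to 1772 and Kdm5d at 294.8 to 604.2. The mix of sexes therefore differed between samples of the same group. The embryonic globin Hbb-y stood at 4657 in early replicate 3 and at 4.11 to 326 in the other arrays.

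Before DNA is copied, the origin recognition complex (Orc1 to Orc6) and the loading factors Cdc6 and Cdt1 place the Mcm2 to Mcm7 helicase ring on origins, a step that geminin (Gmnn) blocks once it is done. The Dbf4-dependent kinase Cdc7 then helps Cdc45 and the GINS subunits join the ring, and polymerase alpha with primase, polymerase delta and polymerase epsilon copy the strands while the clamp Pcna, loaded by the Rfc proteins, holds them on the template. Granule cell precursors of the rhombic lip divide many times during development, whereas neurons do not replicate their nuclear DNA, and many replication genes are known targets of E2F transcription factors.

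Replication genes had higher signals in the late cells nearly throughout. Of the 50 genes, 49 lay above their array's median signal in at least 3 of the 6 arrays and were tested. At an adjusted p of 0.05, 41 of the 49 were higher in the late group and 0 in the early group (limma, Benjamini-Hochberg over 11071 tested genes), where the background over all tested genes was 16.8% in the late direction and 18.5% in the early direction. The 8 remaining genes (Orc1, Orc3, Orc4, Cdc7, Pold3, Rfc2, Rfc3 and Rpa3) also had a lower log2 mean in the early group, without passing. In a fit without the signal filter, which held all 50 genes, 38 passed as higher in the late cells, where the background over its 18193 genes was 5.95% in the late and 8.01% in the early direction. The median log2 difference, early minus late, was -1.92 over the 50 genes and -0.03 over all tested genes, and the genes ran from -6.58 for Dscc1 to -0.07 for Orc4. In 45 of the 50 genes every late array lay above every early array, as it did in 26.4% of all tested genes, while 26% of all tested genes had every early array above every late one. Of the 41 genes past the threshold, 38 were at least 2-fold higher, against 10.8% of all tested genes (12.7% in the early direction), and 31 passed a threshold of 0.01, against 7.5%. In bulk samples such as these, fewer replicating cells and less RNA per cell cannot be told apart.

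**Figure D1:**
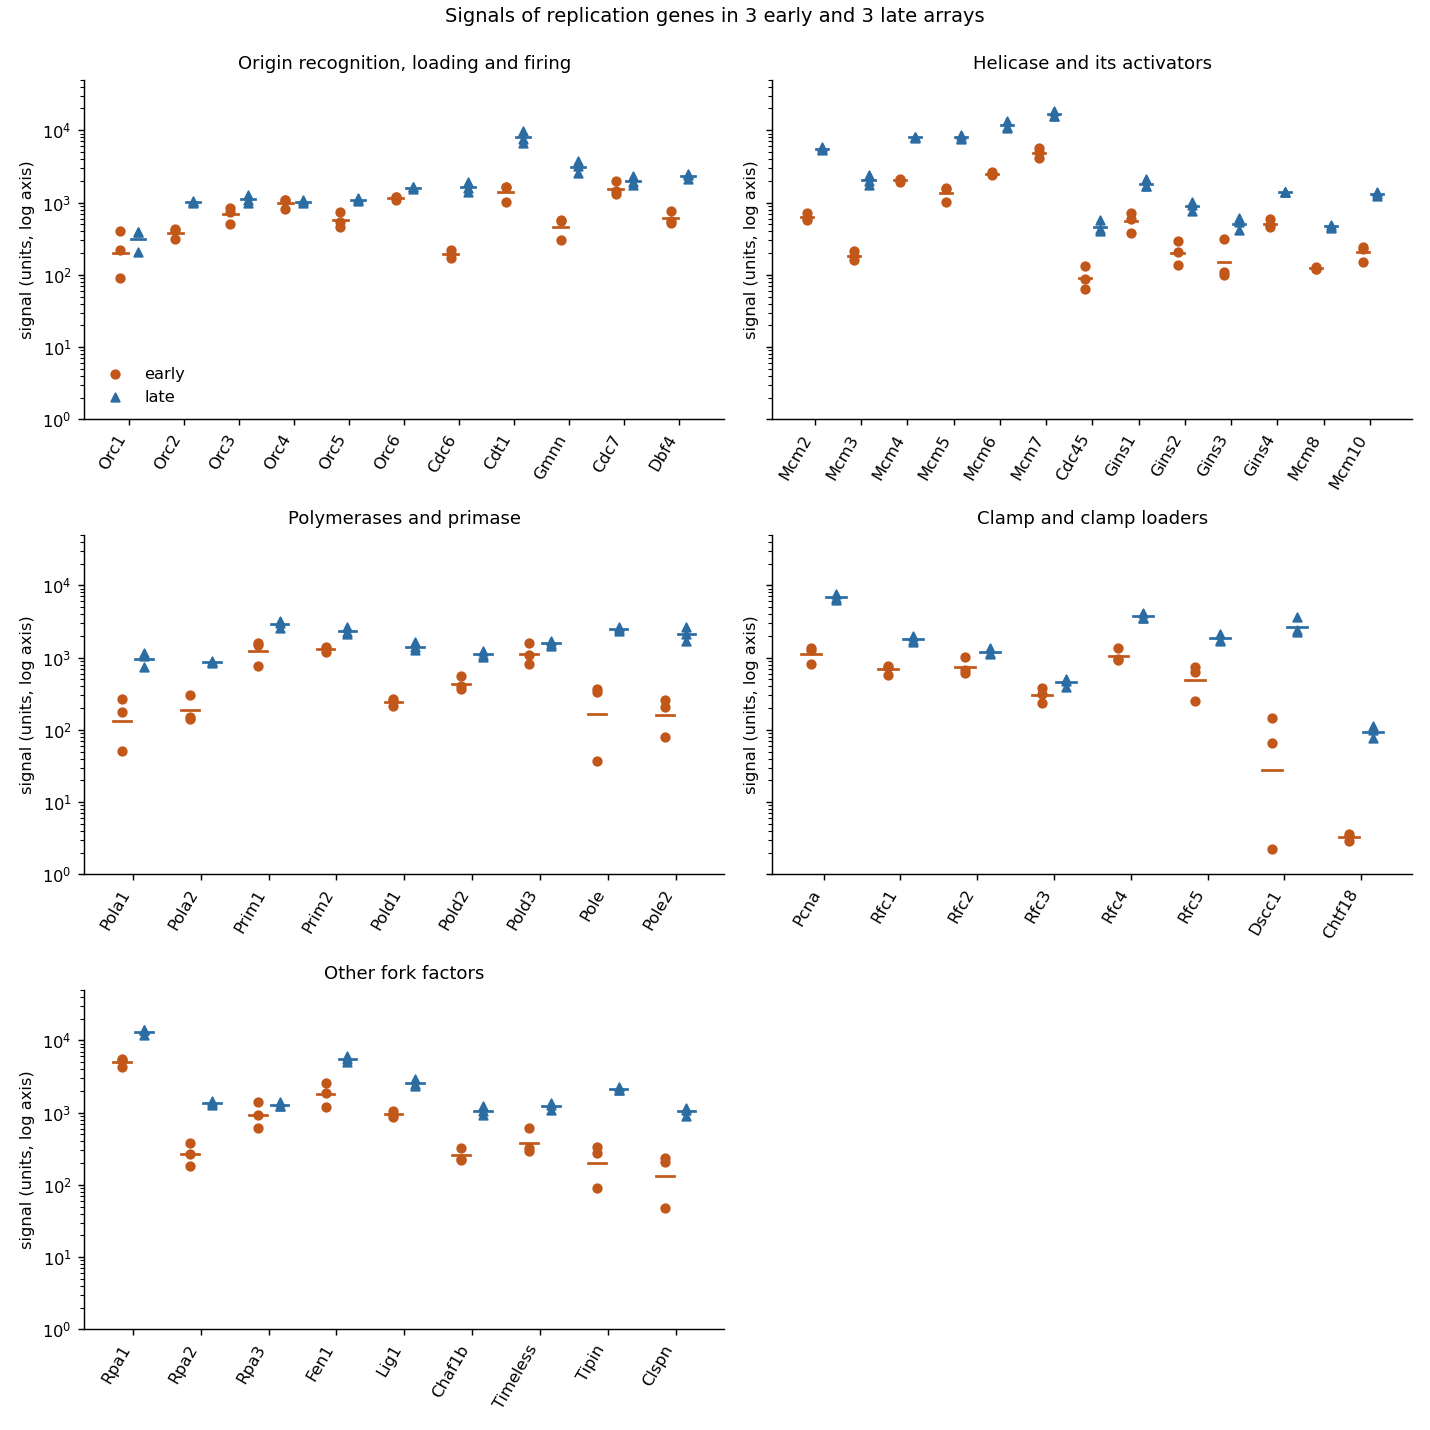
Signal of each replication gene in the 3 early (circles) and 3 late (triangles) arrays on a log axis, in 5 functional classes; the short lines mark the mean of the log2 signals. The late arrays lie above the early arrays in 45 of the 50 genes, and the groups overlap for Orc1, Orc4, Cdc7, Pold3 and Rpa3.

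All 6 arrays lay above their medians for 40 of the 49 tested genes, and for the other 9 the late arrays all did while at least 1 early array did not. The median SD over the 50 genes was 0.37 in the early arrays and 0.157 in the late on the log2 scale. Early replicate 2 was the lowest of its group for 25 of the 50 genes, and late replicate 1 was the highest of its group for 32. Leaving out any 1 array left 34 to 42 of the 49 genes past the threshold, against 8.96% to 18.4% of all genes then tested. Without early replicate 3 and late replicate 3 together, 34 of 48 tested replication genes passed as higher in the late cells, against 7.56% of all genes then tested, and 0 as higher in the early cells. As a measure of RNA quality, Actb signals from the 3′ control were 17.4, 19.4 and 26.2 times those from the 5′ control in early replicates 1 to 3, and 16.1, 15.0 and 12.9 times in late replicates 1 to 3. The Actb ratio was thus higher in every early array than in every late array. The same ratio for Gapdh overlapped between the groups, at 10.6, 12.5 and 13.2 in the early arrays and 12.1, 9.47 and 11.1 in the late. The part of RNA quality in the differences was not tested.

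Promoter sequences are shown because most of the genes passed in one direction. Many replication genes are known E2F targets, so their choice by name is not independent of the E2F words searched. RefSeq windows of 300 bases, 250 before and 50 after the annotated start (GRCm38.p6), were at hand for 41 of the 51 genes and were searched on both strands for the E2F words TTTCCCGC, TTTGGCGC, TTTCGCGC and TTTGCCGC, where a palindromic stretch can hold overlapping words. At least 1 word occurred for 17 of the 41 genes (41.5%), against 2.6% of the 27025 genes in the table and 4.91% of the 9010 genes both tested on the arrays and in the table. By class, 6 of 9 helicase genes, 4 of 7 polymerase genes, 4 of 10 origin genes, 2 of 9 other fork genes and 1 of 6 clamp genes held a word. The 160 bases before the start follow for 3 genes higher in the late cells (Mcm6, Cdc6 and Pola1) and 3 whose signal did not pass (Orc1, Orc3 and Rfc3). Each stretch shown holds a word, whereas only 17 of the 41 genes held one anywhere in the 300 bases. The stretches run 5′ to 3′ on the gene's strand with E2F words in capitals, and a word in capitals may be the reverse complement.
Mcm6 (chr1:128359706-128359865, minus strand): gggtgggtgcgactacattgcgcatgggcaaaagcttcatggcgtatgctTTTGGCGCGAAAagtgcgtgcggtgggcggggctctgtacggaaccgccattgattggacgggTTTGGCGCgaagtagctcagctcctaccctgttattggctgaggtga
Cdc6 (chr11:98907991-98908150, plus strand): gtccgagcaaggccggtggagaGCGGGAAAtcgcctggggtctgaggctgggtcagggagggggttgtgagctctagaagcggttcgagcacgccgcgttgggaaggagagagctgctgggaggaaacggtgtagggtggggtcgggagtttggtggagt
Pola1 (chrX:93632156-93632315, minus strand): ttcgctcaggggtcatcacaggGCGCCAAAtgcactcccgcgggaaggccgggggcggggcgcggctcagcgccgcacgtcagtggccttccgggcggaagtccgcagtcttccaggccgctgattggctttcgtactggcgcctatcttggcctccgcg
Orc1 (chr4:108579294-108579453, plus strand): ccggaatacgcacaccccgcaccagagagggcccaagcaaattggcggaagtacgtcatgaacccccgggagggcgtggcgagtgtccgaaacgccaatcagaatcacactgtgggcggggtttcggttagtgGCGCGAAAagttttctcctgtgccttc
Orc3 (chr4:34614943-34615102, minus strand): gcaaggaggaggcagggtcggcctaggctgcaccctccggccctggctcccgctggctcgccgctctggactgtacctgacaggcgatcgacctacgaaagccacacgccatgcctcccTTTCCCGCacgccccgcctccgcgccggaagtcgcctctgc
Rfc3 (chr5:151651209-151651368, minus strand): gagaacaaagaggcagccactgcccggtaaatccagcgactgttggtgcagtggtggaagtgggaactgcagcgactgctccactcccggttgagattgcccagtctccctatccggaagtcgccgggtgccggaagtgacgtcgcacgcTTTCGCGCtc

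The Mcm6 stretch held 3 words, beginning 110, 106 and 47 bases before the start, of which the first and the second overlap. In the other stretches, the single words of Cdc6 and Pola1 both began 138 bases before the start, that of Orc3 41, that of Orc1 27 and that of Rfc3 10 bases before it. Rfc3 held a further word directly after its stretch. A word was present for 13 of 32 replication genes higher in the late group (40.6%) and for 4 of 9 that did not pass or were not tested (44.4%). Over all genes tested on the arrays, a word was present for 8.0% of those higher in the late cells and 3.22% of those higher in the early cells. Neither pair of shares was tested. Pcna and Rfc4, both higher in the late group, held none in this window. The shorter word CCAAT, which the factor NF-Y binds, occurred for 25 of the 41 genes (61.0%) and for all 9 helicase genes with a window, against 43.4% of genes tested on the arrays. A match is a description of letters and not of a bound site.

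The origin recognition complex, which marks where replication can begin, had the smallest median difference of the complexes. Of its 6 subunits, 3 were higher in the late group and 3 did not pass, with a median log2 difference of -0.68. Orc2 had signals of 308.9, 410 and 427 in the early arrays and 1057, 1013 and 989 in the late. It was 2.69-fold higher in the late group (log2 difference -1.43 ± 0.18 SE, limma adjusted p = 0.00211), and its groups were far apart. Orc5 stood at 541, 458 and 732.5 in the early arrays and 1092, 1062 and 1147 in the late, 1.94-fold apart (adjusted p = 0.0149). It no longer passed without late replicate 3 (adjusted p = 0.0581) or, with the tested genes kept, without late replicate 1 (0.0523). Orc6 was steady within each group, at 1208, 1188 and 1098 in the early arrays and 1637, 1646 and 1560 in the late. Its difference was small (1.39-fold, adjusted p = 0.0461) and its call was lost in 21 of 26 alternatives (adjusted p 0.0289 to 0.203 over all of them), among them leaving out any 1 array.

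Orc4, a subunit of the ATP-binding core of the complex, showed the smallest difference of all 50 genes. Its signals were 805, 1088 and 1084 in the early arrays and 970, 1067 and 1065 in the late, and the groups overlapped (log2 difference -0.07, 95% interval -0.51 to 0.37, limma adjusted p = 0.787). The sign turned without early replicate 1 (0.07). Orc3 stood at 511, 847 and 739 in the early arrays and 997, 1277 and 1092 in the late, with no overlap and no call (-0.71, interval -1.27 to -0.14, adjusted p = 0.0586). Its adjusted p was 0.0349 without early replicate 2, while the mean over its 3 probe sets gave a log2 difference of 0.03. With all arrays, Orc3 passed with a floor (0.0423), a 70th percentile filter (0.0367), trend and robust settings (0.0365) or array weights (0.0412). Orc1, the largest subunit of the complex, was measured by probe sets that differed. Its brightest probe set gave 219, 91.7 and 409 in the early arrays and 391, 395 and 207 in the late, which overlapped (adjusted p = 0.406). Its other probe set gave 84.2, 44.5 and 61.9 in the early arrays and 308, 275 and 270 in the late, a log2 difference of -2.21 ± 0.27 SE that passed in the fit over probe sets (adjusted p = 0.0033). The mean over both passed as well (adjusted p = 0.0301).

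The loading factors Cdc6 and Cdt1, which act in G1, and the loading inhibitor Gmnn were all higher in the late cells. Cdc6 had signals of 169, 197 and 222 in the early arrays and 1935, 1571 and 1410 in the late, 8.34-fold apart (-3.06 ± 0.20 SE, limma adjusted p = 0.000367). Cdt1, which escorts the helicase to origins, stood at 1617, 1031 and 1633 in the early arrays and 9907, 7496 and 6750 in the late, 5.69-fold apart (adjusted p = 0.00101). Gmnn, the inhibitor of Cdt1, was higher in the same group as its target, with 301.5, 578 and 550 in the early arrays and 3795, 3186 and 2584 in the late (6.88-fold, adjusted p = 0.0012). All 3 calls held in all 26 alternatives.

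The 2 subunits of the kinase that fires origins differed in their calls. Dbf4, the regulatory subunit, stood at 514, 759 and 558 in the early arrays and 2481, 2415 and 2123 in the late, 3.88-fold apart (-1.96 ± 0.20 SE, limma adjusted p = 0.00104). Cdc7, the catalytic subunit, stood at 1458, 1305 and 1989 in the early arrays and 1951, 2345 and 1749 in the late, where early replicate 3 lay above late replicates 1 and 3. Its log2 difference was -0.36 (95% interval -0.89 to 0.17, adjusted p = 0.251), and it passed in none of the 26 alternatives. The intervals of the 2 subunits did not overlap (Dbf4 -2.44 to -1.47); the difference between them was not tested.

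In the helicase class all 13 genes were higher in the late group, with log2 differences between -3.46 and -1.46. Of the ring subunits, Mcm3 had 183.5, 161 and 212 in the early arrays and 2430, 1724 and 2002 in the late, 11-fold apart (-3.46 ± 0.20 SE, limma adjusted p = 0.00036). Mcm2 stood at 614.5, 725 and 572 in the early arrays and 5448, 5892 and 5364 in the late, 8.78-fold apart (adjusted p = 0.00034). Mcm5 stood at 1537, 1020 and 1611 in the early arrays and 8691, 7891 and 7553 in the late, 5.90-fold apart (adjusted p = 0.000658). The other subunits of the ring were 4.68-fold (Mcm6), 3.94-fold (Mcm4) and 3.38-fold (Mcm7) higher. The fitted differences of the 6 ring subunits ran from -1.76 for Mcm7 (95% interval -2.20 to -1.32) to -3.46 for Mcm3 (-3.95 to -2.98), intervals that do not overlap. This pair was chosen after its values were seen, and the gap between them was not tested.

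Cdc45 and the GINS subunits, which turn the loaded ring into an active helicase, were 2.76-fold to 5.10-fold higher in the late cells. Cdc45, at the top of this range, was 4.05-fold higher after dim signals were raised to the array median, and only 1 early array lay above the median for it and for Gins3. Cdc45 had 88.4, 62.8 and 133 in the early arrays and 573, 428 and 400.2 in the late (-2.35 ± 0.31 SE, limma adjusted p = 0.00229). Its second probe set was dim, at 64.9 to 147 in the early arrays and 85.3 to 151 in the late, and did not pass (0.08, adjusted p = 0.902 over probe sets). Gins2 stood at 290, 137 and 206 in the early arrays and 919.5, 1024 and 753 in the late (4.43-fold, adjusted p = 0.00282), while its dimmer probe set, with a larger difference of -3.84, missed the threshold (adjusted p = 0.0513 over probe sets). Gins3 stood at 308, 99.2 and 109 in the early arrays and 604, 530 and 417 in the late. Early replicate 1 stood apart in it, and its call (3.43-fold, adjusted p = 0.0242) was lost when any 1 array other than early replicate 1 was left out (adjusted p 0.0516 to 0.0828). Gins1 was 3.35-fold higher, but the mean over its probe sets gave a log2 difference of -0.82 that did not pass (adjusted p = 0.124). Gins4 was 2.76-fold higher.

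Mcm10, which links the helicase to polymerase alpha, had 246, 152 and 230 in the early arrays and 1410, 1226 and 1318 in the late, 6.42-fold apart (limma adjusted p = 0.000627). Mcm8, a related helicase subunit best known from recombination repair and no part of the ring, was among the steadiest genes within groups. It had 121, 119.5 and 127 in the early arrays and 496, 461 and 443 in the late, 3.80-fold apart (-1.93 ± 0.15 SE, adjusted p = 0.000495).

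**Figure D2:**
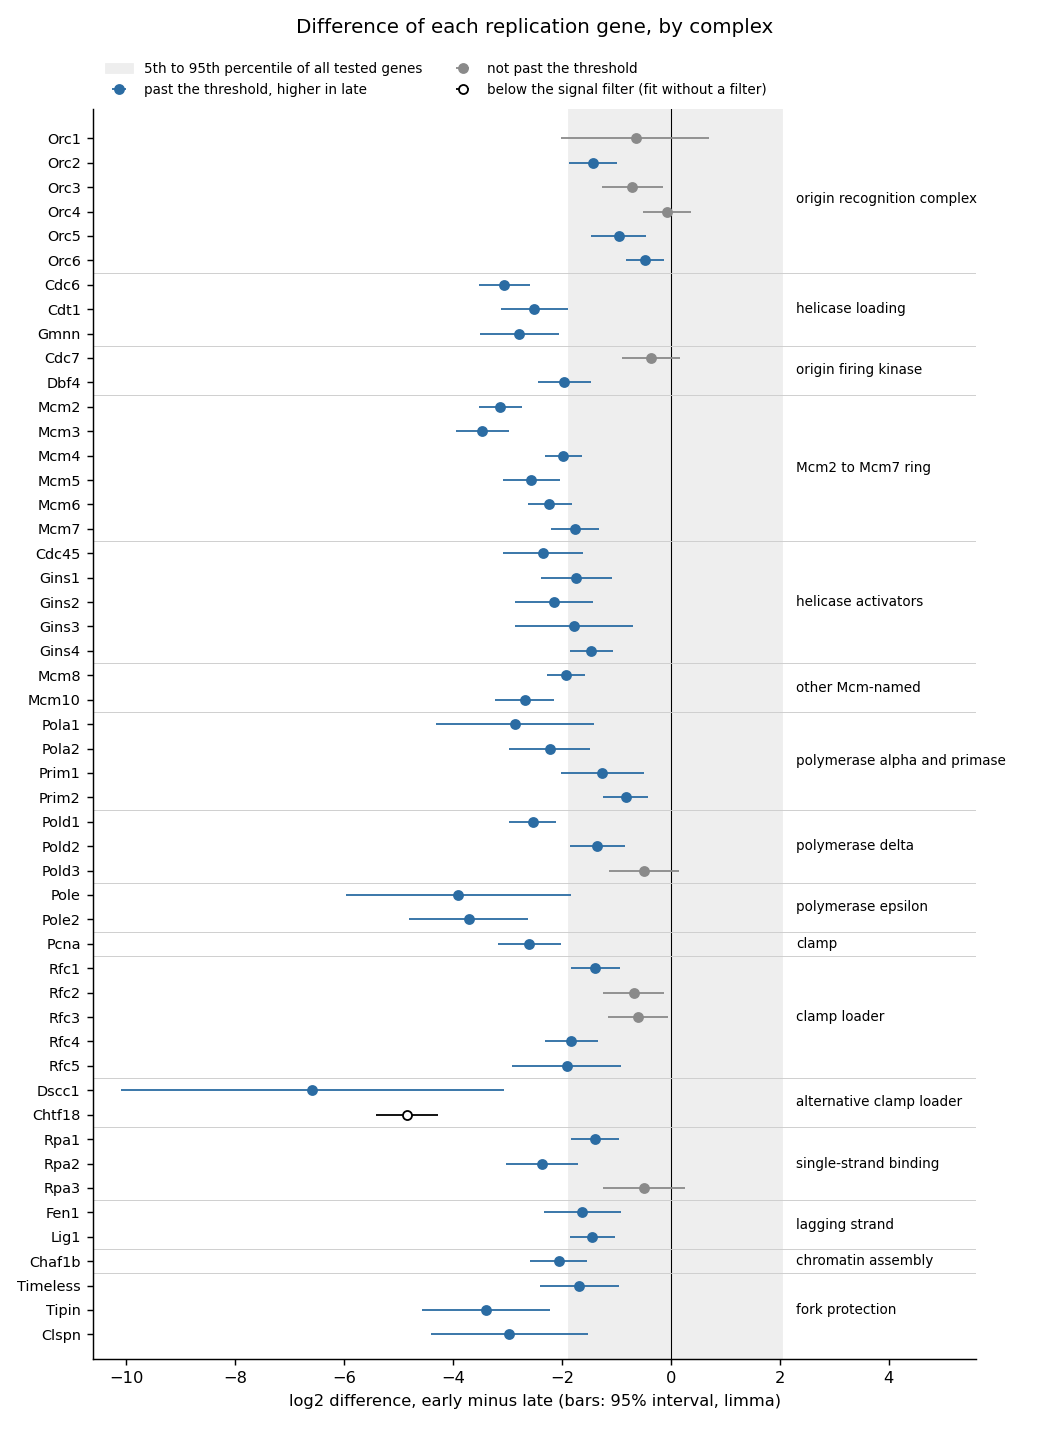
Log2 difference, early minus late, of each replication gene with its 95% interval from limma, ordered by complex; the grey band spans the 5th to 95th percentile of all tested genes (-1.87 to 2.03). All 13 helicase genes pass, while the intervals of Orc1, Orc4, Cdc7, Pold3 and Rpa3 cross 0, each in a complex with at least 1 subunit that passes.

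Polymerase epsilon, which copies the leading strand, had the largest differences among the polymerases. Its catalytic subunit Pole had 330, 36.9 and 369 in the early arrays and 2648, 2338 and 2457 in the late, 15.0-fold apart (-3.91 ± 0.86 SE, limma adjusted p = 0.0147). Early replicate 2 was far below the other early arrays, and the fold was 10.8 after dim signals were raised to the array median. With the tested genes kept, the call of Pole was lost without late replicate 1 (adjusted p = 0.0519). Pole2, the second subunit, stood at 204, 80.6 and 259 in the early arrays and 2678, 2147 and 1670 in the late, 13.1-fold apart (adjusted p = 0.00178), and its call held in all alternatives.

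Polymerase alpha and primase, which lay down the short primers, were higher in the late group with all 4 subunits. Pola1, the catalytic subunit, had 265, 50.2 and 177 in the early arrays and 738, 1163 and 1056 in the late, 7.27-fold apart (-2.86 ± 0.60 SE, limma adjusted p = 0.0127). The fold was 5.78 after dim signals were raised to the array median, and the call was lost without early replicate 3 and late replicate 3 (adjusted p = 0.0713). Pola2 stood at 304, 143 and 149.5 in the early arrays and 875, 843 and 895 in the late, 4.67-fold apart (adjusted p = 0.00283), but the mean over its 3 probe sets, 2 of them dim, did not pass (adjusted p = 0.127). The primase subunits had smaller fitted differences than the polymerase subunits, which was not tested. Prim1, the catalytic subunit of primase, had 761, 1606 and 1491 in the early arrays and 3255, 2999 and 2542 in the late, with early replicate 1 apart from its group. It was 2.39-fold higher in the late group (adjusted p = 0.023), and missed the threshold without late replicate 1, 2 or 3 (adjusted p = 0.0758, 0.0682 and 0.0523). Prim2, the large subunit, was 1.78-fold higher (adjusted p = 0.0114).

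In polymerase delta, the lagging strand enzyme, the catalytic subunit and the accessory subunit Pold3 differed in their calls. Pold1 had 269, 253 and 212 in the early arrays and 1625, 1397 and 1259 in the late, 5.83-fold apart (-2.54 ± 0.18 SE, limma adjusted p = 0.000432). Pold2 stood at 399, 366 and 548 in the early arrays and 1235, 1007 and 1080 in the late, 2.56-fold apart (adjusted p = 0.00394). Pold3, which binds the clamp and also serves translesion polymerases, had 1576, 1081 and 805 in the early arrays and 1698, 1559 and 1462 in the late. Early replicate 1 lay among the late arrays, and Pold3 did not pass (-0.50, 95% interval -1.14 to 0.14, adjusted p = 0.19) except without that array (adjusted p = 0.0374). The interval of Pold1, -2.98 to -2.11, lay wholly below that of Pold3, but the difference between the 2 genes was not tested.

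Pcna, the sliding clamp that tethers polymerases and many other replication proteins, was measured by 1 probe set. It had 1371, 818 and 1264 in the early arrays and 6177, 6727 and 7555 in the late, 6.05-fold apart (-2.60 ± 0.24 SE, limma adjusted p = 0.000787). The clamp loader was mixed, with 3 of its 5 subunits higher in the late group. Rfc4 had 927, 951 and 1337 in the early arrays and 4163, 3549 and 3559 in the late (3.55-fold, adjusted p = 0.00127), and a second probe set gave -1.82 where the first gave -1.83. Rfc5 stood at 639, 248 and 732 in the early arrays and 2102, 1725 and 1715 in the late (3.77-fold, adjusted p = 0.0142), with early replicate 2 low. Rfc1, the large subunit that is found only in the replicative loader, stood at 762, 746 and 567 in the early arrays and 2010, 1659 and 1738 in the late. It was 2.62-fold higher (adjusted p = 0.00259), and all 3 of its probe sets passed.

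Rfc2 and Rfc3 did not pass although their arrays did not overlap. Rfc2 had 1011, 670.5 and 620 in the early arrays and 1348, 1116 and 1160 in the late (-0.68, 95% interval -1.24 to -0.13, limma adjusted p = 0.0606). Rfc3 stood at 313, 378 and 234 in the early arrays and 480, 394 and 510.5 in the late (-0.60, interval -1.15 to -0.05, adjusted p = 0.0852). Both sat near the threshold, and Rfc2 passed without early replicate 1 (adjusted p = 0.0147) and Rfc3 without early replicate 2 (0.0406). With all arrays, Rfc2 also passed with signals floored at the array median (0.0444), a 70th percentile filter (0.0382) or trend and robust settings (0.0368). The clamp class as a whole had 5 of 7 tested genes higher in the late group, and 3 of 7 without late replicate 1, when Rfc5 and Dscc1 missed the threshold (adjusted p = 0.0505 and 0.0517).

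Dscc1, a subunit of the alternative clamp loader that also serves sister chromatid cohesion, had the largest fitted difference of all 50 genes. Its signals were 66.43, 146.4 and 2.253 in the early arrays and 3639, 2376 and 2230 in the late (limma adjusted p = 0.0153). Only 1 early array lay above its array's median, and its value in early replicate 3 carried much of the log2 difference of -6.58 ± 1.46 SE. After dim signals were raised to the array median, Dscc1 was 22.1-fold higher in the late group. Chtf18, its partner in the same loader, was too dim to be tested, at 2.91, 3.37 and 3.60 in the early arrays and 76.09, 97.95 and 111.9 in the late. Late replicate 3 was its one array above the median, and in the fit without a filter its adjusted p was 0.00397. A fold is not given because all early arrays and 2 of 3 late arrays lay below their medians.

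Replication protein A, which coats single-stranded DNA at the fork, differed by subunit in its calls. Rpa2 had 378, 267 and 183 in the early arrays and 1282, 1362 and 1451 in the late, 5.15-fold apart (-2.36 ± 0.28 SE, limma adjusted p = 0.00155). Rpa1, the large DNA-binding subunit, stood at 5288, 4238 and 5547 in the early arrays and 13940, 13740 and 11800 in the late, 2.63-fold apart (adjusted p = 0.00213). Rpa3, the smallest subunit, had 912.5, 1408 and 605 in the early arrays and 1407, 1232 and 1243 in the late. Early replicate 2 of Rpa3 lay just above the highest late array, and the gene did not pass (-0.49, 95% interval -1.24 to 0.26, adjusted p = 0.266). Without that array Rpa3 passed (adjusted p = 0.0419).

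Fen1 and Lig1, the nuclease and the ligase that finish the lagging strand, were both higher in the late cells. Fen1 had 2567, 1199 and 1874 in the early arrays and 6078, 5022 and 5572 in the late, 3.09-fold apart (limma adjusted p = 0.00716). Lig1 stood at 878, 915 and 1059 in the early arrays and 2933, 2349 and 2504 in the late, 2.73-fold apart (adjusted p = 0.00161). Chaf1b, a subunit of the assembly factor that puts histones behind the fork, stood at 325, 224 and 231 in the early arrays and 1242, 1051 and 931.5 in the late, 4.16-fold apart (adjusted p = 0.0011). None of these 3 genes had overlapping groups.

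The fork protection genes, which hold the fork together and signal its stalling to the checkpoint, were all higher in the late group. Tipin had 275, 89.4 and 338.5 in the early arrays and 2041, 2274 and 2085 in the late (log2 difference -3.39 ± 0.49 SE, limma adjusted p = 0.00313). Clspn stood at 210, 48.3 and 234 in the early arrays and 1079, 1159 and 907 in the late, 7.82-fold apart (adjusted p = 0.0107). Its fold was 6.14 after dim signals were raised to the array median. Timeless, the partner of Tipin, stood at 608, 319 and 296 in the early arrays and 1294, 1362 and 1077 in the late, 3.21-fold apart (adjusted p = 0.00731). It missed the threshold with the mean over its probe sets (0.0616) and, with the tested genes kept, without early replicate 3 and late replicate 3 (0.0549). The low value of early replicate 2 in Tipin and Clspn recurred in Pole, Pole2, Pola1 and Rfc5, so these folds rest in part on that array.

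Within genes, most probe sets gave the same call. Of the 104 probe sets, 87 passed the signal filter, and 63 of these (72.4%) passed as higher in the late cells and 0 as higher in the early cells, against 12.5% and 13.4% of all 23491 tested probe sets. Without early replicate 3 and late replicate 3 together, 32 of 77 tested probe sets were higher in the late group, against 2.71% of the 20925 probe sets then tested. Among the 27 genes that had 2 or more tested probe sets, all were past the threshold in 16, none in 5 (Orc3, Orc4, Pold3, Rfc2 and Rfc3), and calls differed in 6 (Orc1, Orc2, Cdc45, Gins2, Gins3 and Timeless). Thus Orc3, Orc4, Pold3, Rfc2 and Rfc3 had no tested probe set past the threshold, while Orc1 had 1. Signs differed between probe sets for Orc3, Orc4 and Cdc45.

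**Figure D3:**
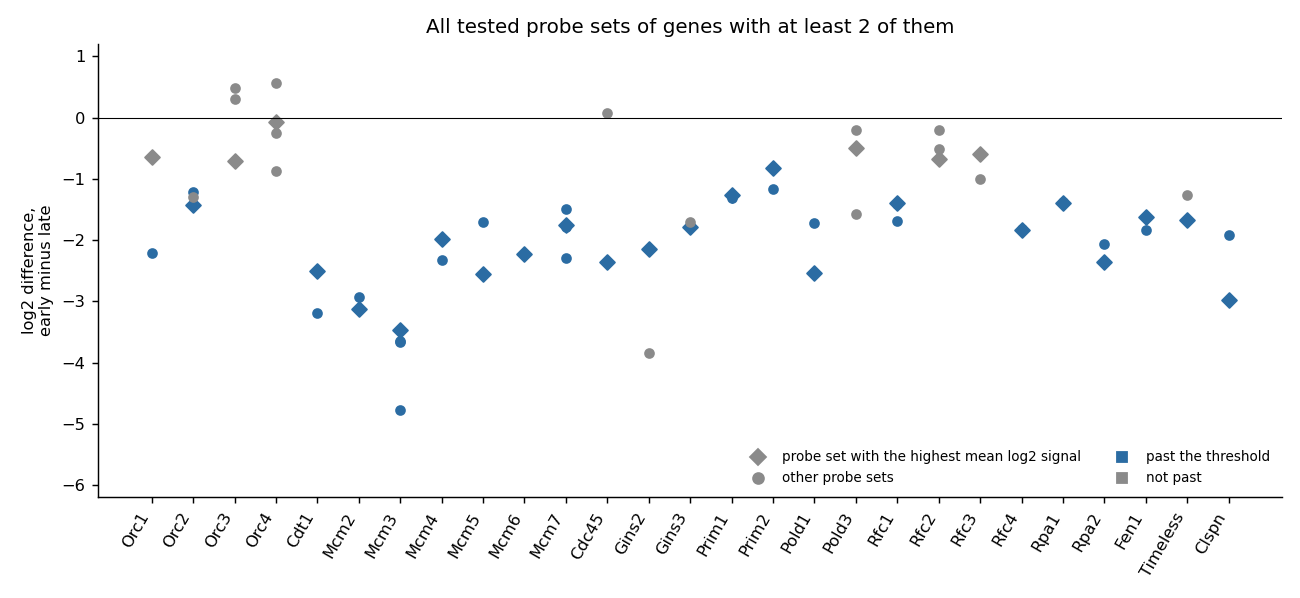
Log2 difference, early minus late, of every tested probe set for the 27 genes with at least 2 of them; diamonds mark the probe set that stands for the gene, and colour marks the adjusted p in the fit over probe sets. Probe sets of Orc3, Orc4, Pold3, Rfc2 and Rfc3 all stay short of the threshold, and those of Orc1 and Cdc45 lie on both sides of it.

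Replication genes outside the list were described in the same way. The background over all tested genes was again 16.8% in the late and 18.5% in the early direction. Of 39 tested genes of a wider replication list (initiation partners, histone chaperones, checkpoint and cohesion genes), 25 passed as higher in the late cells, 14 did not pass and 0 were higher in the early cells, with a median of -1.54. Esco2, which acetylates cohesin during S phase, was 16.3-fold higher in the late group (limma adjusted p = 0.0214), or 4.20-fold with low signals raised to the array median. Chek1, the checkpoint kinase of stalled forks, was 12.9-fold higher (adjusted p = 0.00756), and Fbxo5, an inhibitor of the anaphase-promoting complex, 8.60-fold (adjusted p = 0.00205). Of the small subunits of polymerase delta and epsilon, Pole3 was 2.23-fold higher in the late group, while Pold4 (0.26 ± 0.22 SE) and Pole4 (0.54 ± 0.24 SE) did not pass. Of 17 tested E2F family and pocket protein genes, 9 passed as higher in the late cells and 0 as higher in the early cells. The largest differences were those of E2f8 (7.70-fold), E2f7 (4.79-fold), both repressor members of the family, and Rbl1 (4.24-fold). Only 1 early array of E2f8 lay above the median, and E2f8 was 5.44-fold higher after dim signals were raised to the array median.

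Repair and translesion polymerases and genes of mitochondrial DNA replication were counted in the same way. Of 8 tested repair and translesion polymerases, 0 passed as higher in the late cells (1 at an unadjusted limma p of 0.05) and 2 as higher in the early cells. Rev3l, the catalytic subunit of translesion polymerase zeta, had 14080, 16630 and 14940 in the early arrays and 3963, 4038 and 4091 in the late (1.91 ± 0.15 SE, limma adjusted p = 0.000554). Polb, the base excision repair polymerase, had 5787, 8337 and 7281 in the early arrays and 4302, 4442 and 4286 in the late (0.70 ± 0.19 SE, adjusted p = 0.0279). Of 10 tested genes that copy mitochondrial DNA, 2 passed as higher in the late cells, the polymerase Polg (2.45-fold) and the helicase Twnk (1.73-fold), and 8 did not pass. The difference between these lists and the origin and fork genes was not tested.

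**Figure D4:**
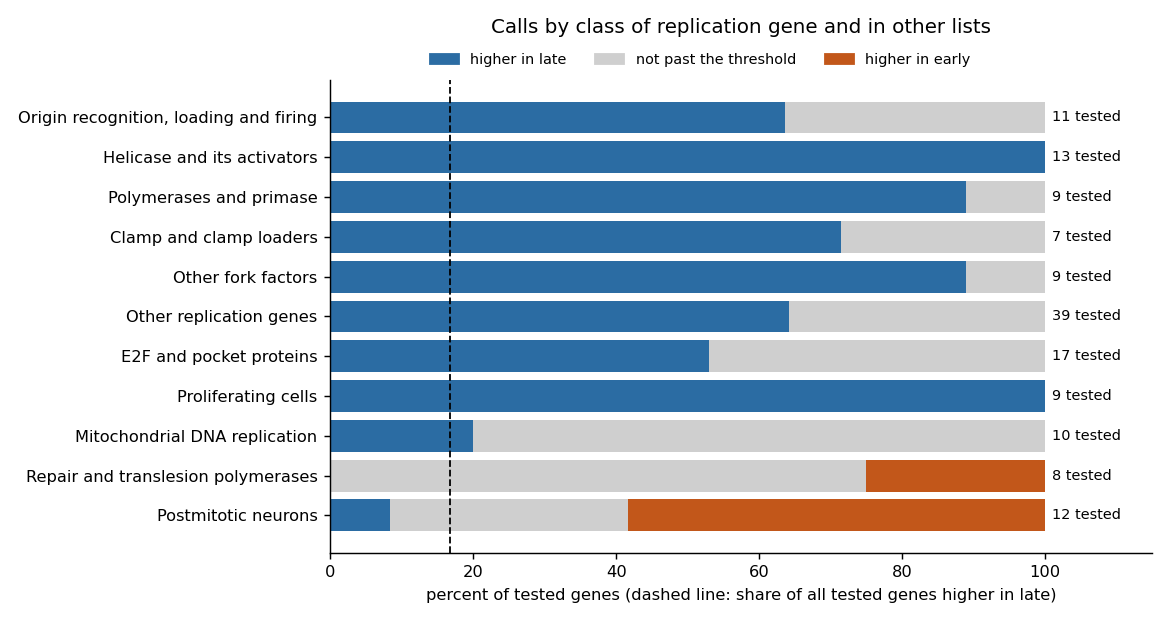
Share of tested genes that were higher in the late group, did not pass or were higher in the early group, for the 5 classes of replication genes and 6 other lists, with the number tested at the right; the dashed line is the share of all tested genes higher in the late group (16.8%). The helicase bar is filled completely (13 of 13), and repair and translesion polymerases have no gene higher in the late group (0 of 8).

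Markers of cell state moved with the replication genes. The background for their counts was 16.8% of all tested genes in the late and 18.5% in the early direction. All 9 tested proliferation markers passed as higher in the late cells, with summed signals of 2266 to 2813 in the early arrays and 22300 to 24920 in the late, among them Mki67 (11.1-fold), Cdk1 (10.6-fold) and Kif20a. No early array of Kif20a lay above the median, and it was 9.86-fold higher after dim signals were raised to it. Of 12 tested markers of postmitotic neurons, 7 were higher in the early group and 1 (Rbfox3) in the late group, with sums of 112500 to 118500 against 57020 to 64630. The 8 tested granule cell lineage markers were all higher in the late group, with sums of 24610 to 32250 against 66740 to 72290, and Atoh1 itself, by which the cells were labelled, was 13.1-fold higher. The part of the mix of cell states in the differences of replication genes was not tested.

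Some markers of other cell types had signals above the filter. Of 7 tested astroglial markers 2 were higher in each group (summed signals 20650 to 22620 in the early arrays and 28850 to 35080 in the late). Vim made up most of the late sum (24030 to 28970, against 11680 to 12560 in the early arrays), whereas Fabp7 was higher in the early group. Such sums are led by the brightest genes, as by Hbb-y (4657) for blood in early replicate 3. Of 5 tested oligodendrocyte lineage markers Olig1 and Olig2 were higher in the early and Pdgfra in the late group (3571 to 3944 against 1535 to 2043). Of 5 tested markers of GABAergic hindbrain cells, Gad1, Gad2 and Calb1 were higher in the early group (2238 to 3549 against 828 to 1133). Csf1r was the one microglial marker of 2 tested past the threshold, in the early group (535 to 1498 against 377.5 to 531 for the list), and none of 4 endothelial (677 to 2718 against 281 to 1745), 2 blood (134 to 4837 against 361 to 403) or 2 mesenchymal markers (396 to 1760 against 296 to 563) passed. No marker was at 0, and the part of these cells in the differences was not tested.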

How the data were processed

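Linear intensities as deposited by the authors were used, with MAS5 named in the submitters' processing notes and no version stated there. Each array's values show a scaling to a mean of 500 without the lowest and highest 2% of signals. The 64 control probe sets were left out. The platform annotation gave 1 symbol to 34958 probe sets, several to 932 and none to 9211. Log2 signals (pseudocount 0) were compared with limma 3.58.1 in R 4.3.3 (lmFit, eBayes, 2.52 prior degrees of freedom), early minus late, two-sided, Benjamini-Hochberg adjusted over all genes above their array's median (50th percentile) in at least 3 arrays. A second fit took all probe sets. SDs are over 3 arrays. Because MAS5 subtracts mismatch signals, dim signals scatter widely once logged, and the common scaling hides any change in total RNA per cell.

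The members, lists and tests were chosen with earlier results of these data known. Values in every array are given, per complex, for up to 3 members with the largest difference past the threshold, for members that did not pass and for those whose probe sets differ in call, and for other lists up to 3 genes with the largest difference past the threshold are named. Other settings were a block for the replicate number, quantile normalization, median centring, an offset of 5.97 units, a floor at the array median, no filter or one at the 70th percentile, eBayes with trend and robust settings, array weights, other ways to combine probe sets, a threshold of 0.01 and leaving out arrays. Added after seeing the data were calls from the fit over probe sets and leaving out arrays with the tested genes kept. Methods were tested on simulated data. Atoh1, Hbb-y, Xist, Eif2s3y, Kdm5d, Pole3, Pold4 and Pole4 were singled out after their values were seen.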

Additional observations from a re-analysis of the deposited data

How the results depend on the processing

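Over the 26 alternative fits, 28 of the 41 genes past the threshold passed wherever they were tested, the other 13 (Orc5, Orc6, Gins1, Gins3, Pola1, Pola2, Prim1, Prim2, Pole, Rfc5, Dscc1, Fen1 and Timeless) missed the threshold in at least 1, and the count of replication genes higher in the early cells stayed 0. Of the 8 genes that did not pass, Orc1, Orc3, Pold3, Rfc2, Rfc3 and Rpa3 passed in at least 1 alternative. The count of 41 genes ran from 32 to 43 (31 at a threshold of 0.01). The share of all tested genes higher in late ran from 5.95% to 22.4% over these fits. Leaving out 1 array gave 34 to 42 genes, against 8.96% to 18.4% of all tested genes. Class counts without 1 array were 5 to 7 of 11 origin, 12 to 13 of 13 helicase, 6 to 9 of 9 polymerase, 3 to 6 of 7 clamp and 8 to 9 of 9 other fork genes. The count of probe sets was then 43 to 64, against 4.77% to 13.7% of all tested probe sets. Without early replicate 3 and late replicate 3, 32 of 77 tested probe sets and 5 polymerase genes passed, and 29 probe sets and 4 polymerase genes with the tested genes kept, with fewer arrays by construction. At a threshold of 0.01, 4 polymerase and 3 clamp genes passed. The sign turned for Orc3 with the mean over probe sets (0.03) and for Orc4 without early replicate 1 (0.07, and -0.15 to 0.07 without any 1 array). With the replicate block 39 genes passed, against 12.5% of all tested genes, without Orc6 and Prim1 (adjusted p = 0.13 and 0.0501). Deviations of same-numbered samples from their group means had correlations of -0.029, -0.075 and -0.005. With 3 arrays per group these values cannot show whether the numbers pair samples, and the labels do not say. Calls taken from the fit over probe sets gave 40 genes, without Orc6, against 13.9% of all tested genes. Chtf18, below the filter, was fitted only without it. Early signals below the array median limit Orc1, Dscc1, Chtf18, Cdc45, Gins3, Pole, Pole2, Pola1, Tipin and Clspn.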
